A study of Mus musculus with 4 samples.

Results

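The pyruvate dehydrogenase complex and the enzymes that switch it on and off were followed in the gastrocnemius, a calf muscle made mostly of fast fibres. The set held 10 genes, taken by symbol from 23282 gene rows. They were the 4 kinases Pdk1, Pdk2, Pdk3 and Pdk4, the 2 phosphatases Pdp1 and Pdp2, and the 4 complex subunits Pdha1, Pdhb, Dlat and Pdhx. All 10 had reads in all 4 libraries, and none lay at or under the floor of 3 reads. The lowest was Pdk3, with 9 reads in the normal control library (exact Poisson interval 4.12 to 17.1).

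The muscle came from male CDF1 mice, labelled postnatal day 28, that differed in high-intensity treadmill running (E) and in a tumor (T) raised by putting CT26 cells, a mouse colorectal cancer line, into the tail vein. The tumor-free groups were normal control, E(-)T(-), and normal exercise, E(+)T(-). The tumor-bearing groups were cancer control, or E(-)T(+), together with cancer exercise, or E(+)T(+). The methods place the purchase of the mice at about the labelled age, before running and injection. Running took place on alternate days. The killing, at the end of the experiment, is dated in days, which the results of the study count from the vein injection. The muscle was thus taken later than the purchase, at an age that is not stated. Beside the tumor cells the methods name the imaging reagent MMPSense680, given by the same vein to follow spread, and an anaesthetic of tiletamine, zolazepam and xylazine at the end. Cells and reagent are described for the cancer model, and no vein injection is named for tumor-free mice. Tumor, injection and reagent thus cannot be told apart in the tumor comparisons. No allele was named, and each group was represented by 1 library of 3′ mRNA sequencing. The design text gives 10 mice a group, while the text of the study speaks of a representative mouse, so the number of animals behind a library was not settled. With 1 library a group there was no replicate error, no test was possible, and no p-value is given.

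Values are normalized read counts, and because reads come from the 3′ end of each transcript they do not scale with gene length. A fold is the difference of the deposited log2 values, which carry a pseudocount of 1. A gene was called higher or lower at a fold of at least 2, provided that its level reached 4 in either library of the comparison. Intervals in brackets are 95% Clopper-Pearson intervals of the ratio of reads and cover counting error only. Libraries held 10647080 to 13226306 reads. All 10 skeletal muscle markers (Acta1, Ckm, Myh4 and others) had reads in every library, and together they made up 13.0% in normal control and 11.7% in normal exercise, against 7.94% in cancer control and 8.59% in cancer exercise, of all reads. The defining markers of the labelled tissue were thus present in all 4 libraries.

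The complex sits in the mitochondrial matrix and turns pyruvate, the end product of glycolysis, into acetyl-CoA for the citric acid cycle. The kinases phosphorylate its E1 alpha subunit and switch it off, and the phosphatases remove the phosphate and switch it on again. In skeletal muscle Pdk4 is known for rising in fasting, when the muscle spares glucose and burns fatty acids, and Pdk2 is the most widely expressed of the kinases. Activity also depends on calcium, acetyl-CoA, NADH and the phosphorylation state of the enzyme, none of which a transcript count shows.

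The promoters of the least steady and of the most abundant kinase are shown because the kinases make up the pool described next. Sequences are from RefSeq, build GRCm38.p6, 5′ to 3′ on the strand of the gene, from 250 bases before to 50 bases after the start. Capitals mark matches to any of the motifs searched on both strands, TGTTTAC and its core TGTTT (FoxO factors), AAGGTCA (nuclear receptor half-site), ACANNNTGT (glucocorticoid receptor core) and ACGTG (hypoxia response core). TGTTT is contained in TGTTTAC, so a match to the longer motif counts under both.
Pdk4, chr6:5496229-5496528, minus strand: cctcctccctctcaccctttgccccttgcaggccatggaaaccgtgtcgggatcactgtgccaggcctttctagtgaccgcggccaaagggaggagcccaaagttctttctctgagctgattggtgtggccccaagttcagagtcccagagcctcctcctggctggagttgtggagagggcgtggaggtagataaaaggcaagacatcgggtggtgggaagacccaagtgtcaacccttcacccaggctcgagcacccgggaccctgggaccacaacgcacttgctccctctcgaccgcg
Pdk2, chr11:95041322-95041621, minus strand: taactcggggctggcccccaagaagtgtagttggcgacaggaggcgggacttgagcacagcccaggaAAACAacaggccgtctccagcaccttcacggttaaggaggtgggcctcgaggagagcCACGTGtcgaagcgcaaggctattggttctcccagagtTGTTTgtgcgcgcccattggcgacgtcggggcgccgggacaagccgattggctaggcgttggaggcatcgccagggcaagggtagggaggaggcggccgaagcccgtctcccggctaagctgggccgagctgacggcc

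None of these letters occurred in the Pdk4 window, which says nothing about the factors. Positions count from the start, with bases before it negative. The printed Pdk2 window held TGTTT on the strand shown at position -88 and its reverse complement at -183. It also held the palindrome CACGTG, which contains ACGTG on both strands, at -126. A second Pdk2 window, chr11:95040826-95041125, held none of the motifs. Of 32851 mouse promoters of this length 3.65% held TGTTTAC, 50.5% TGTTT, 4.72% AAGGTCA, 6.85% ACANNNTGT and 19.6% ACGTG. The table held 11 promoters for 9 of the 10 genes. ACGTG also occurred in the windows of Pdk3, Pdhb and Pdp2, and none of the other motifs occurred in the remaining windows. Pdp1 had no entry.

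Pdk4, the kinase of fasting and fat use (chr6:5483351-5496309, minus strand, mm10 as for all positions of genes), varied most in the set. Its normalized read count was 427 in normal control and 21.7 in normal exercise, against 1059.9 in cancer control and 969 in cancer exercise. Normal exercise was the low library, and both tumor libraries lay above normal control. These values came from 401, 27, 990 and 895 reads in the same order, and the 27 reads of normal exercise carry an exact Poisson interval of 17.8 to 39.3 reads.

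After exercise in healthy mice Pdk4 fell 18.8-fold (13.2 to 29.9). A larger change in either direction was found for 0.517% of the 14518 genes compared. In tumor-bearing mice the exercised library differed from the sedentary one by -0.13 in log2 (-0.26 to 0.00), and Pdk4 was not called. The exercise effect was thus 4.11 log2 units less negative with a tumor than without, and 4.33% of genes showed a larger difference between the exercise effects. Without replicates this difference was not tested.

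Pdk4 rose 2.48-fold (2.21 to 2.80) with a tumor in sedentary mice. Between the exercised libraries it was 42.7-fold (30.2 to 67.6) higher with a tumor, and 0.207% of 14470 genes changed more. Each library enters 2 of the 4 comparisons, so the 18.8-fold and the 42.7-fold differences both rest on the low value of normal exercise. Over the 4 libraries Pdk4 spanned 5.55 log2 units, against a median span of 1.36 over 15485 genes, and 1.29% of genes spanned more. In a whole-muscle sample, fewer cells of a type and less RNA per cell cannot be told apart.

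**Figure D1:**
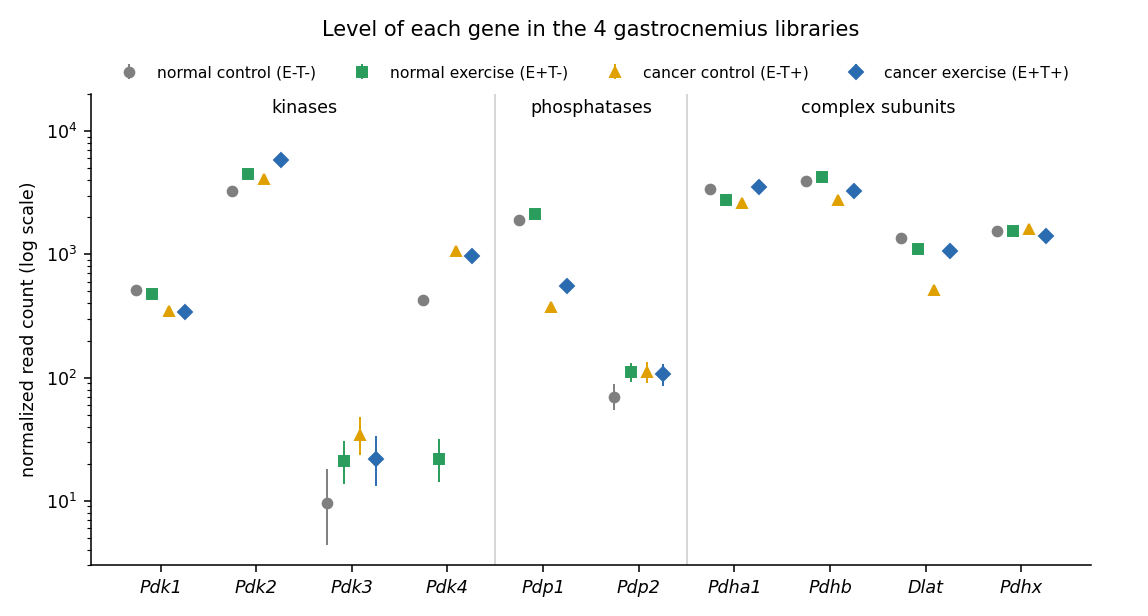
Normalized read count (log axis) of each of the 10 genes in the 4 libraries, with kinases, phosphatases and complex subunits set apart. Vertical lines are 95% counting intervals and are hidden by most points. Pdk4 lies at 21.7 in normal exercise and at 969 or above in both tumor libraries, Pdp1 is lower in both tumor libraries, and Pdhx is nearly level.

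Pdk2 (chr11:95026258-95041354, minus strand) was the most abundant kinase in every library. It stood at 3276 in normal control and 4450.3 in normal exercise, against 4092 in cancer control and 5848 in cancer exercise. Exercised libraries were the higher ones both without a tumor, by 0.44 in log2 (0.38 to 0.51), and with one, by 0.52 (0.46 to 0.58). Neither difference reached 2-fold, and the whole span of Pdk2 was 0.84 log2 units.

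Pdk1, the kinase known as a target of hypoxia signalling (chr2:71873224-71903858, plus strand), was at 513 and 474 in the normal control and normal exercise libraries and at 345 and 343 in the cancer control and cancer exercise libraries. Both tumor libraries were below both tumor-free ones, by 0.57 log2 units without exercise (0.37 to 0.78) and by 0.47 with it (0.27 to 0.67), which did not reach 2-fold. The 2 exercise comparisons gave -0.11 and -0.01, with counting intervals that included 0.

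Pdk3, the least abundant kinase (chrX:93764607-93832201, minus strand), was at 9.61 in normal control and 21.1 in normal exercise, against 34.2 in cancer control and 21.7 in cancer exercise. These were 9, 26, 32 and 20 reads, so that the lowest library decides its calls. It was called higher after exercise in healthy mice, 2.08-fold, and with a tumor, 3.32-fold (1.67 to 8.53). The interval of the first ran from no change to 5.34-fold, and this call was lost with a pseudocount of 4. Cancer exercise lay 0.64 log2 units below cancer control (-1.55 to 0.19) and 0.04 above normal exercise (-0.88 to 0.94).

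The make-up of the kinase reads can be compared within each library, where scaling between libraries plays no part. Pdk2 gave 77.5% of them in normal control and 89.6% in normal exercise, against 74.0% in cancer control and 81.4% in cancer exercise. Pdk4 gave 10.1% (9.18 to 11.1), 0.441% (0.291 to 0.640), 19.2% (18.1 to 20.3) and 13.5% (12.7 to 14.3) in the same order. In tumor-bearing mice the exercised library thus had a lower Pdk4 share than the sedentary one, with intervals that did not overlap, while its Pdk4 level was almost the same and its Pdk2 level was higher. The share of Pdk1 was 12.1%, 9.55%, 6.23% and 4.78%, and that of Pdk3 stayed between 0.227% and 0.620%.

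Pdp1, the calcium-activated phosphatase that predominates in skeletal muscle (chr4:11958184-11966452, minus strand), was lower in both tumor libraries. It was at 1902 in normal control and 2131 in normal exercise, against 371 in cancer control and 557 in cancer exercise. Both tumor-free libraries lay close together and the tumor libraries lay far below them. Pdp1 fell 5.12-fold (4.57 to 5.77) with a tumor in sedentary mice and 3.82-fold (3.48 to 4.21) in exercised mice. In these comparisons 17.3% and 14.1% of genes changed more. Exercise differed by 0.16 in log2 (0.08 to 0.25) without a tumor and by 0.59 (0.39 to 0.79) with one, below the 2-fold limit in both.

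Pdp2, the phosphatase known for insulin responsiveness (chr8:104591451-104599026, plus strand), was far less abundant. It was at 70.2 in normal control and 110.3 in normal exercise, against 110.3 in cancer control and 106 in cancer exercise. Normal control was the low library, 0.64 log2 units below normal exercise and equally far below cancer control, and no comparison reached 2-fold. The number of Pdp1 reads per Pdp2 read was 27.1 (21.2 to 35.2) in normal control and 19.3 (16.3 to 23.1) in normal exercise, against 3.36 (2.69 to 4.23) in cancer control and 5.24 (4.22 to 6.58) in cancer exercise.

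Kinase reads set against phosphatase reads separated the libraries by tumor. There were 2.14 kinase reads per phosphatase read (2.03 to 2.27) in normal control and 2.22 (2.12 to 2.32) in normal exercise. With a tumor there were 11.5 (10.4 to 12.7) in cancer control and 10.8 (9.97 to 11.8) in cancer exercise. The ratio was almost equal in both tumor-free libraries, which differed in Pdk4 but drew most of their kinase reads from Pdk2. Reads were also set against Pdha1, whose level is uncertain for a reason given below. Kinase reads per Pdha1 read were 1.24 in normal control and 1.79 in normal exercise. In cancer control they were 2.14 and in cancer exercise 2.05. Phosphatase reads per Pdha1 read were 0.578, 0.805, 0.186 and 0.189 in the same order. Pdk4 alone gave 0.224 reads per Pdp1 read in normal control and 0.0103 in normal exercise, against 2.86 in cancer control and 1.74 in cancer exercise. Pdk4 reads thus outnumbered Pdp1 reads only in the tumor libraries. A read ratio is not a ratio of proteins or of activities.

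**Figure D2:**
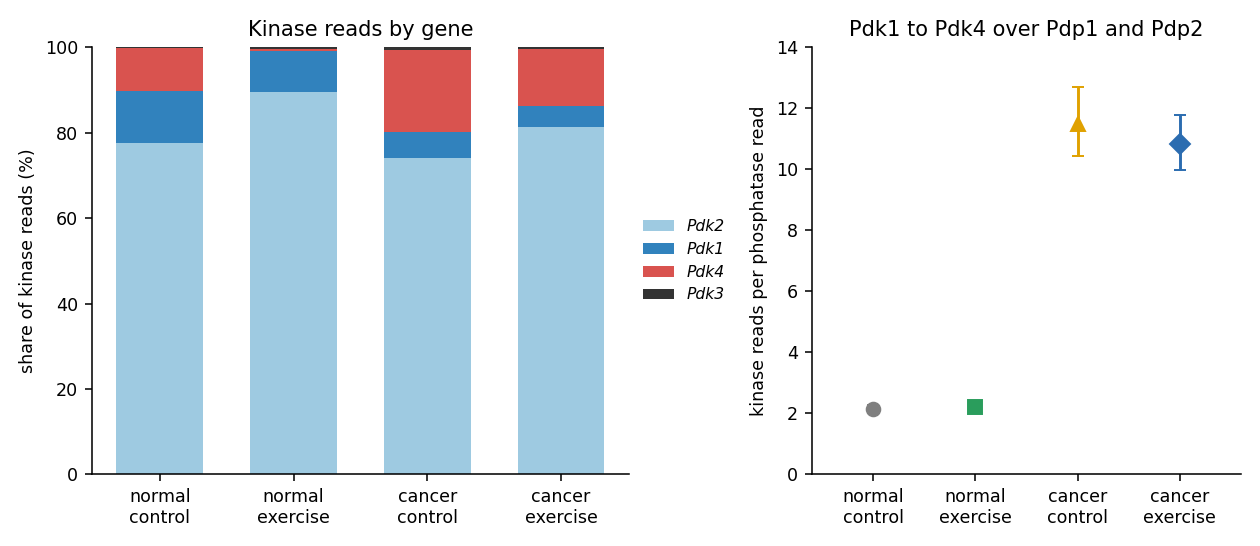
Left, share of kinase reads (%) given by Pdk2, Pdk1, Pdk4 and Pdk3 in each library; right, kinase reads per phosphatase read with 95% counting intervals, which are smaller than the points for the normal libraries. Pdk4 takes 0.441% of kinase reads in normal exercise and 19.2% in cancer control, and the ratio is 2.14 and 2.22 without a tumor and 11.5 and 10.8 with one.

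Of the complex subunits, Dlat (E2, the acetyltransferase core that carries the lipoyl groups, chr9:50634633-50659780, minus strand) was the only one to pass the 2-fold limit. It was at 1368 in normal control and 1108 in normal exercise, against 514 in cancer control and 1070.2 in cancer exercise. Cancer control was the low library, and the other three lay within a narrow band. Dlat fell 2.66-fold (2.39 to 2.96) with a tumor in sedentary mice. In tumor-bearing mice it was 2.08-fold (1.86 to 2.33) higher after exercise, which is 1.06 in log2. Scaled by total reads the value was 0.99, just under the 2-fold limit, so that the call was lost. In exercised mice the tumor made a difference of -0.05 in log2 (-0.17 to 0.07).

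Read ratios within a library showed the same low point. Dlat gave 0.887 reads per Pdhx read (0.822 to 0.957) in normal control and 0.715 (0.667 to 0.767) in normal exercise, against 0.320 (0.289 to 0.355) in cancer control and 0.757 (0.696 to 0.822) in cancer exercise. Against Pdha1 it gave 0.401, 0.398, 0.199 and 0.305, so cancer exercise lay between cancer control and the tumor-free libraries on that measure. The level of Pdha1, which was highest in cancer exercise, is uncertain, as described next.

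Pdha1, the E1 alpha subunit that the kinases phosphorylate (chrX:160122209-160138413, minus strand), was at 3412 in normal control and 2783 in normal exercise, against 2588 in cancer control and 3504 in cancer exercise. After training it was lower than in the sedentary library without a tumor, by -0.29 in log2 (-0.36 to -0.22), and higher with one, by 0.44 (0.36 to 0.51), all below 2-fold. The last exon of Pdha1 overlaps Map3k15 on the opposite strand. Map3k15 had 33.7% to 38.3% as many reads as Pdha1, and since it is not stated whether counting used strand, reads of the pair cannot be told apart and the level of Pdha1 is uncertain.

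Pdhb, the E1 beta subunit (chr14:8165996-8173025, minus strand), was at 3915 in normal control and 4225 in normal exercise, against 2756 in cancer control and 3294 in cancer exercise. Both tumor libraries were the lower ones, by 0.51 log2 units without exercise (0.43 to 0.58) and 0.36 with it (0.29 to 0.42). Pdhx, which tethers the E3 enzyme to the core (chr2:103021075-103073513, minus strand), was at 1543, 1549, 1605 and 1414 in the same order and was the steadiest gene of the set. Its span was 0.18 log2 units, and 99.2% of genes spanned more. Pdha1, with a span of 0.44, was exceeded by 92.0% of genes.

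Counted over the set, 2 of 10 genes were called after exercise in healthy mice, Pdk3 higher and Pdk4 lower. Among all genes compared 21.5% were called, 9.44% higher and 12.1% lower. Sedentary mice with a tumor had 4 of 10 called, Pdk3 and Pdk4 higher and Dlat and Pdp1 lower, against 45.1% of all genes, 20.9% higher and 24.2% lower. Exercise in tumor-bearing mice left 1 of 10 called, Dlat higher, against 30.6% of all genes, 15.6% higher and 15.1% lower. In exercised mice the tumor comparison called 2 of 10, Pdk4 higher and Pdp1 lower, against 30.3% of all genes, 13.9% higher and 16.3% lower. These counts lie near or below the background, and the background itself depends on the minimum. With a minimum of 16 the same genes of the set were called, against 6.04% of all genes higher and 7.92% lower after exercise in healthy mice. Every gene of the set passes that minimum in each comparison, so only the share of all genes could move. The counts are therefore no result about the set as a whole.

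**Figure D3:**
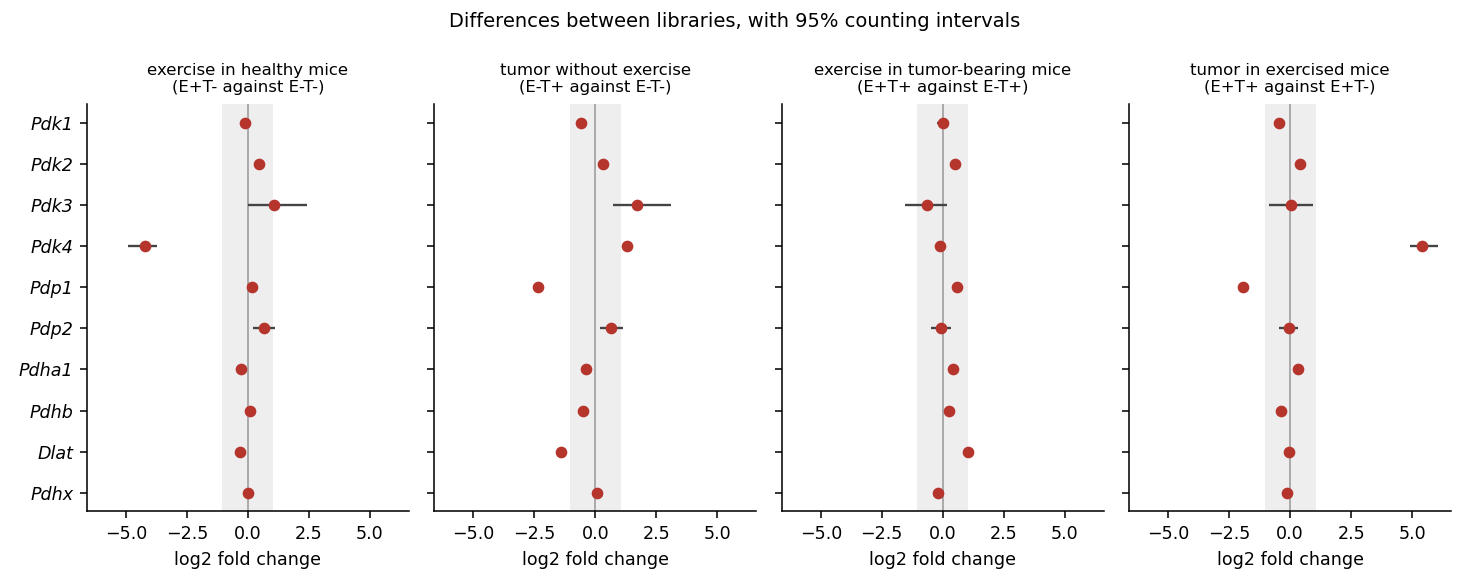
Log2 fold change of each gene in the 4 comparisons, with 95% counting intervals as horizontal lines; the grey band marks less than 2-fold. Most genes lie inside the band, Pdk4 lies at -4.23 after exercise in healthy mice and at 5.42 with a tumor in exercised mice, and Pdp1 lies below the band in both tumor comparisons.

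The lists that follow are read against these shares of all genes and against the median log2 fold change of all genes. That median was -0.01 after exercise in healthy mice, -0.04 with a tumor in sedentary mice, 0.01 after exercise in tumor-bearing mice and -0.03 with a tumor in exercised mice.

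The enzymes that work with the complex were read as 5 genes, among them Dld (E3, the lipoamide dehydrogenase) and the lipoylation enzymes Lias, Lipt1 and Lipt2. After exercise in healthy mice 2 of 5 were higher and the median log2 fold change was 0.16. Lipt1, which transfers lipoyl groups to the E2 subunits, rose 2.86-fold from 115 to 330.1, and the other was Pdpr, the phosphatase regulatory subunit, counted at 0 in normal control and at 9 reads in normal exercise. In sedentary mice with a tumor 1 of 4 was lower (median -0.15), Lipt2, which fell from 71.3 to 30.04. After exercise in tumor-bearing mice Lipt2 was the 1 of 4 called, at 78.0 and 2.54-fold higher (median 0.50), and in exercised mice with a tumor Pdpr was the 1 of 5 called (median 0.01), with 3 reads against 9. Dld stayed within 2-fold, at 2409, 1675, 1668 and 2180 in the order of libraries used above.

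Genes that bring pyruvate to the complex or take it elsewhere were read as a list of 12, with the mitochondrial carrier, the lactate dehydrogenases, pyruvate carboxylase, alanine transaminases, malic enzymes and lactate transporters. In healthy mice 0 of 12 were called after exercise (median -0.15). The tumor in sedentary mice went with 5 of 12 lower and none higher (median -0.59), beside 24.2% of all genes lower and 20.9% higher. Slc16a3, a lactate exporter of glycolytic fibres, fell 6.62-fold from 2254 to 340, and Ldha, the muscle-type lactate dehydrogenase, fell 3.77-fold from 14775 to 3920.0. Mpc2, a subunit of the mitochondrial pyruvate carrier, fell 2.82-fold from 8803 to 3125, and Me1, the cytosolic malic enzyme, fell 2.34-fold from 2869 to 1225.

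In tumor-bearing mice 2 of 12 were higher and 1 lower after exercise (median 0.15). Slc16a3 was 5.74-fold higher, at 1955, and Ldha 2.07-fold higher, at 8106, while Gpt2, the mitochondrial alanine transaminase, fell 2.13-fold from 1694 to 793. Exercised mice had 2 of 12 lower with a tumor (median -0.05). They were Pcx, pyruvate carboxylase, which fell 3.69-fold from 402 to 108, and Me1, which fell 3.13-fold from 4027 to 1285. The cancer control library was thus the low one for Slc16a3, Ldha, Mpc2 and Dlat alike.

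The citric acid cycle, which receives the acetyl-CoA, was read as 14 enzymes. In the tumor comparison of sedentary mice 3 of 14 were lower and none higher (median -0.50), which is under the 24.2% of all genes called lower. Idh3a, a catalytic subunit of isocitrate dehydrogenase, fell 3.54-fold from 4924 to 1391, and the succinyl-CoA ligase subunits Suclg1 and Sucla2 fell 2.51-fold and 2.46-fold. The exercise comparison with a tumor had 1 of 14 higher (median 0.35), Idh3a, 2.54-fold at 3533. In both comparisons with the normal exercise library 0 of 14 were called, with medians of -0.27 after exercise in healthy mice and 0.09 with a tumor in exercised mice.

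The sister complexes are built on the same plan for branched-chain keto acids and 2-oxoglutarate, and 7 of their genes were read. After exercise in healthy mice 2 of 7 were lower (median -0.18), Dbt, the branched-chain E2, which fell 2.63-fold from 417 to 158, and Ppm1k, the phosphatase of that complex, which fell 2.54-fold from 320.1 to 126. Only Bckdhb, the branched-chain E1 beta, was higher of 7 with a tumor in sedentary mice (median 0.15), at 1134 against 407. Exercise with a tumor left 0 of 7 called (median -0.002), and with a tumor in exercised mice 1 of 7 was higher (median 0.43), Dbt, at 335 against 158. In cancer control, the low library of Dlat, Dbt was at 352 and was not called against normal control.

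Factors known to control Pdk genes were read as 16 genes, of which 15 passed the minimum after exercise in healthy mice and 16 in the other comparisons. After exercise in healthy mice 1 of 15 was called (median -0.18), Klf15, a glucocorticoid-induced factor of amino acid and lipid use, which fell 4.38-fold from 187 to 42.0. With a tumor in sedentary mice 3 of 16 were higher and 2 lower (median 0.12). Klf15 rose 7.08-fold to 1332, and Foxo1, the fasting factor that insulin keeps out of the nucleus, rose 5.20-fold from 630 to 3278. Rxrg, a retinoid X receptor of skeletal muscle, fell 20.3-fold from 867 to 41.8, and Ppargc1b, a coactivator of mitochondrial genes, fell from 220.2 to 62.2.

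In the exercise comparison with a tumor 2 of 16 were higher and 2 lower (median -0.18). Klf15 fell 2.27-fold to 586 and Foxo1 2.19-fold to 1499, while Rxrg rose 8.57-fold to 366 and Ppargc1b 3.08-fold to 194. Among exercised mice 4 of 16 were higher and 1 lower with a tumor (median 0.35), with Klf15 13.7-fold, Foxo1 2.92-fold and Ppara, the fatty acid receptor, 2.85-fold higher. Rxrg fell there 3.79-fold from 1389 to 366. Of the regulators and the fasting genes described next, Klf15, Foxo1, Ppara and Lpl had the order of libraries of Pdk4. Normal exercise was lowest, normal control next, cancer exercise above and cancer control highest. This order was looked for after the values were seen, and the share of all genes that have it was not counted. Foxo3 was also highest in cancer control, but it had 0 reads in both tumor-free libraries, which therefore cannot be ordered. Klf15 was 2.27-fold lower in cancer exercise than in cancer control, while Pdk4 was not called there.

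Genes known to rise with Pdk4 in fasting or with fatty acids were read as a list of 16. After exercise in healthy mice 4 of 16 were lower and 1 higher (median -0.36). Angptl4, an inhibitor of lipoprotein lipase, fell 6.95-fold from 168 to 23.3, Ucp3, the mitochondrial uncoupling protein of muscle, fell 4.07-fold from 592 to 145, and Lpl, lipoprotein lipase itself, fell 2.02-fold from 12756 to 6316. Plin2, a lipid droplet coat protein, rose 2.15-fold.

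With a tumor in sedentary mice 3 of 16 were higher and 2 lower (median 0.04). Acot1 and Acot2, which split fatty acyl-CoA, rose 19.5-fold and 2.55-fold, the first from 11 reads in normal control to 231, and Txnip, an inhibitor of glucose uptake, rose 3.47-fold. Angptl4 and Ucp3 fell there, 2.03-fold and 2.36-fold, whereas Pdk4 rose. After exercise in tumor-bearing mice 2 of 16 were higher and 1 lower (median 0.49), with Ucp3 2.24-fold higher and Txnip 2.21-fold lower. With a tumor in exercised mice 8 of 16 were higher and none lower (median 0.91), beside 13.9% of all genes higher and 16.3% lower, led by Acot1 (8.91-fold), Angptl4 (4.49-fold), Acot2 (4.30-fold) and Ucp2 (4.19-fold). The exercise comparison in healthy mice and the tumor comparison in exercised mice share the normal exercise library, in which Angptl4, Ucp3 and Lpl were lowest.

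**Figure D4:**
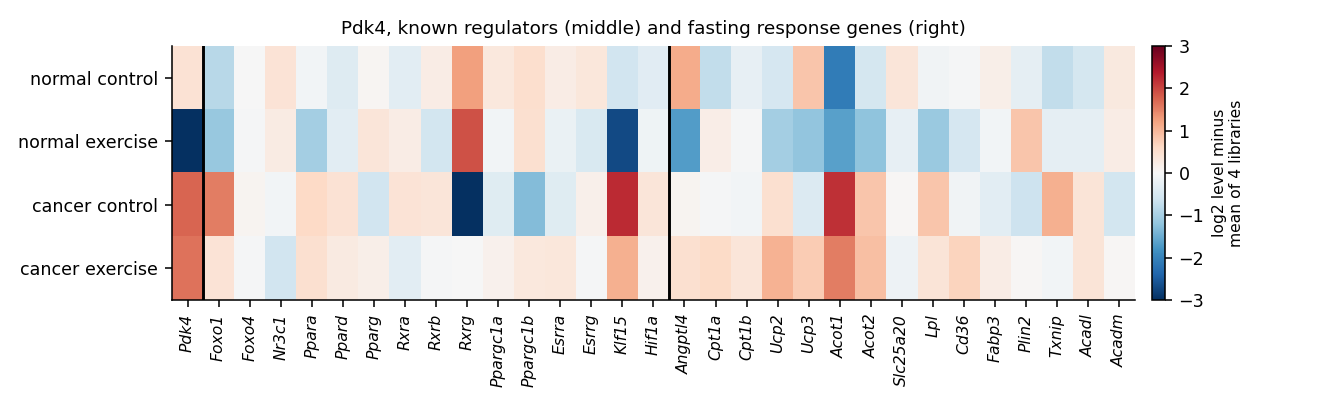
Log2 level of Pdk4, of known regulators of Pdk genes (middle block) and of fasting and fatty acid response genes (right block) in each library, minus the mean of the 4 libraries; genes without enough reads are left out and colours saturate at 3 log2 units. Pdk4 and Klf15 are lowest in normal exercise and highest in cancer control, whereas Foxo4 lies between 947 and 1036 in all 4 libraries.

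Hypoxia response genes, the company in which Pdk1 is known to rise, were read as a list of 12. In healthy mice 1 of 12 was higher after exercise (median 0.26), Egln3, an oxygen-sensing prolyl hydroxylase, 3.40-fold. With a tumor in sedentary mice 5 of 12 were higher and 1 lower (median 0.60), beside 20.9% of all genes higher and 24.2% lower. Egln3 rose 26.1-fold from 143 to 3749.9, Bnip3, a mitophagy receptor, rose 6.36-fold from 2618 to 16646, and Slc2a1, the glucose transporter GLUT1, rose 4.04-fold from 140.4 to 571. Adm, the vasodilator peptide adrenomedullin, rose 3.04-fold. Of the 12 genes 7 lay above 0 in log2 and 5 below it, down to -1.12. Pdk1 itself was at 345 against 513 in the same libraries, -0.57 in log2, and was not called. After exercise in tumor-bearing mice 1 of 12 was higher and 3 lower (median -0.30), with Vegfa 2.16-fold higher, Slc2a1 2.58-fold lower and Bnip3 2.35-fold lower. Exercised mice had 2 of 12 higher and 2 lower with a tumor (median 0.11), with Egln3 7.07-fold and Bnip3 2.61-fold higher and Ankrd37 4.24-fold lower.

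Markers of other cells also differed between the libraries. Slow fibre markers (7 genes) made up 0.0691% of all reads for normal control and 0.133% in normal exercise, against 0.218% in cancer control and 0.0971% in cancer exercise, and 4 of 7 were higher after exercise in healthy mice and 6 of 7 with a tumor in sedentary mice. Fat cell markers (7 genes) took 0.319%, 0.201%, 0.110% and 0.223% in the same order, with Lep at 0 reads in both tumor libraries and 7 of 7 lower with a tumor in sedentary mice. Fibroblast markers (7 genes) took 0.788%, 0.416%, 0.324% and 0.316%, with 5 of 7 lower after exercise in healthy mice and in each tumor comparison. After exercise in tumor-bearing mice 4 of 7 were higher (median 1.30), although the sum, mostly reads of Dcn, was almost level. Red cell markers (6 genes) took 2.08%, 0.480%, 2.06% and 4.23%. Red cell markers were thus lowest in the library in which Pdk4 was lowest, with 5 of the 5 that passed the minimum called lower after exercise in healthy mice.

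Neutrophil markers (8 genes) took at most 0.0233% of reads and were higher as a sum in both tumor libraries. Of those that passed the minimum, 6 of 7 were higher with a tumor in sedentary mice and 4 of 5 in exercised mice. Mpo was at 0 reads in both tumor libraries, and Ngp was at 0 in cancer exercise. Endothelial markers (6 genes) took between 0.0255% and 0.0382%. Of 8 keratinocyte markers all had reads in cancer control, the library in which Dlat and Pdp1 were lowest, with a summed 0.00748% of reads, and 2 or 3 had reads in each of the other libraries. The 10 skeletal muscle markers fell as a sum in both tumor libraries, in which Pdp1 was also low, yet with a tumor in sedentary mice 3 of 10 were lower and 1 higher, with a median of -0.13. The part of these cell types and of fibre type in the levels of the 10 genes was not tested.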

How the data were processed

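QuantSeq 3′ mRNA libraries of gastrocnemius were sequenced, 1 for each of 4 groups, and groups were taken from the sample titles. Per the methods and the submitters' processing notes, the authors aligned reads with Bowtie2 to mm10, obtained counts per gene from bedtools coverage, which edgeR then adjusted by quantile normalization. Versions, annotation and the handling of strand, duplicates and multiply matching reads are not given in the sources used here. What the authors deposited is, for 23282 gene rows (23238 distinct symbols), the log2 of a normalized read count to which 1 was added. Folds were differences of these deposited log2 values, and understate changes of low genes.

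Whole reads were rebuilt with a model of the adjustment, 1 scaling factor per library (0.923 to 1.23) and 1 dispersion (0.340). Whole reads explained 100% of the deposited values within 0.0007 log2 units, and 93.8% to 95.5% of the values in a library matched 1 read count alone. Reads of the 10 genes were uncertain by at most 1.90 reads. The script was tested on simulated data. Intervals at 95% and the floor of 3 reads cover counting error only, since no molecular identifiers are stated.

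A gene was called changed at a fold of at least 2 provided that either library reached a level of 4. The study names a fold and a normalized read count of these sizes without saying on which scale or in how many libraries, so reading it as a linear level in either library is a choice made here, and a minimum of 16, which is 4 on the log2 scale, was an alternative. The rule was applied to all gene rows. The 10 genes were named in full. Of each other list, genes past the rule with at least 64 in at least 1 library were named, up to the 4 with the largest fold. A few others were named after their values were seen: Pdpr, as the remaining member of a small count, Dld, Angptl4 with a tumor in sedentary mice, Dbt in cancer control, Foxo3, and Foxo4 as a level gene of a plot. The 10 genes and all lists were chosen with earlier results of these data known. Alternatives were other scalings, pseudocounts, minimums and folds, and, added after seeing the data, the subunits without Pdha1. Positions came from the mm10 annotation, promoters from RefSeq. Computations used Python 3.11.15, numpy 2.4.6, pandas 2.3.3 and scipy 1.17.1, and plots matplotlib 3.10.9.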

Additional observations from a re-analysis of the deposited data

Results flagged for a closer look

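For 2 genes the exercised library moved one way without a tumor and the opposite way with one, each beyond counting error. Dlat was -0.30 in log2 after exercise in healthy mice and 1.06 after exercise in tumor-bearing mice, a difference of 1.36. A larger difference was found for 30.6% of genes. Pdha1 was -0.29 and 0.44 in the same comparisons, a difference of 0.731, which 52.1% of genes exceeded. Read the other way, the tumor effect on Pdha1 was -0.40 in sedentary and 0.33 in exercised mice and differs by the same 0.731, since the same 4 libraries give both. These differences were not tested, because each group has 1 library. Reads of Pdha1 and of the overlapping Map3k15 cannot be told apart, and the part of this overlap was not tested.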

How the results depend on the processing

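With 1 library per group no library could be left out. No paired analysis was possible because each group has 1 library. Of 68 recomputed summary values 57 stayed within the allowed range, as did 146 of 160 single-gene folds, and 0 of the 160 reversed a call. For folds, medians and ratios the range came from the counting intervals, and for counts of called genes it was 1.5-fold. Scaling by trimmed means (TMM) could hardly differ, because the rebuilt scaling factors lie within 0.0053% of it. Ratios of deposited counts could hardly differ either, because the reads were rebuilt from them. Both are among the values that stayed. Total count scaling moved the median of all genes from -0.01 to 0.15 after exercise in healthy mice and from -0.03 to -0.19 with a tumor in exercised mice, so folds there are read relative to that shift. It turned the sign of 2 small values, Pdk1 after exercise in healthy mice (-0.11 to 0.05) and Pdk3 with a tumor in exercised mice (0.04 to -0.11). It also left 0 genes called after exercise in tumor-bearing mice in place of 1 (Dlat), and moved the subunit median after exercise in healthy mice from -0.14 to 0.017 and with a tumor in exercised mice from -0.09 to -0.25. A pseudocount of 4 left 1 gene called after exercise in healthy mice, Pdk4, in place of 2. With a fold of at least 4 there was 1 gene after exercise in healthy mice (Pdk4), 1 with a tumor in sedentary mice (Pdp1, in place of 4), 0 after exercise in tumor-bearing mice and 1 with a tumor in exercised mice (Pdk4, in place of 2). With a fold of at least 1.5 there were 3 after exercise in tumor-bearing mice (Pdk3, Dlat and Pdp1). Without Pdha1 the subunit median was 0.006 after exercise in healthy mice and 0.26, in place of 0.35, after exercise in tumor-bearing mice. A minimum of 16, or of 4 in both libraries, called the same genes of the set. Neither could drop one, since the lowest level in the set was 9.61 and the higher level of each comparison was at least 21. The share of all genes called after exercise in healthy mice went from 9.44% higher and 12.1% lower to 6.04% and 7.92%, or to 5.47% and 6.96%. Depth limits Pdk3, with 9 to 32 reads per library, and Pdk4 in normal exercise, with 27 reads. The spread between animals is unknown for every value.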

Other observations

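Genes with the pattern most like that of Pdk4 were searched among the 10435 genes that reached a level of 64 in any library, by the Euclidean distance of log2 values centred on the mean of the 4 libraries. Ms4a8a was nearest, at a distance of 0.29 log2 units, with 38.3 in normal control and 1.47 in normal exercise, against 95.2 in cancer control and 79.0 in cancer exercise. Gm15441 (0.95), Ttr (1.28), Itgb3 (1.32) and Klhl38 (1.55) followed. All 5 were lowest in normal exercise, which the search for the pattern of Pdk4 selects for, and had normalized read counts under 3 there. Vegfb was nearest to Pdha1, at a distance of 0.028, followed by Dock1 (0.036), Nov (0.054), Arpc1b (0.055) and Mrpl30 (0.057). In normal exercise the 5 genes near Pdk4 lie at or under the floor of 3 reads, so their distances rest there on the pseudocount, and Gm15441, Ttr and Itgb3 reached the level of 64 in cancer control alone. These are likenesses over 4 libraries, without a test.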
